A study of Mus musculus with 2 samples.

Results

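The genes of the renin-angiotensin system were examined in total RNA of the mouse adrenal gland. The set holds 9 genes, Agtr1a, Agtr1b, Agtr2, Agt, Ren1, Ace, Agtrap, Mas1 and Atp6ap2, chosen by symbol for their known place in the system, out of 55450 annotated genes of which 21951 are protein-coding. The glands came from male B6CASTF1/J mice of 2 months, an F1 hybrid of C57BL/6J and CAST, with no treatment given in the labels. The 2 libraries form 1 group and are numbered replicates 1 and 2. A strand-specific kit was used on 300 ng of RNA per library, with ribosomal RNA reduced and ERCC spike-ins (synthetic RNAs of known mixture) added. Whether the replicates are 2 animals is stated unevenly: the descriptions of the samples number the animals differently, but those of the libraries, and the donor field, do not. No conditions could be compared, and since replicate 1 against replicate 2 sets a single library against another, no p-value was computed.

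The system makes a blood pressure hormone by successive cuts. Angiotensinogen (Agt) is cut by renin (Ren1) to angiotensin I, which angiotensin-converting enzyme (Ace) trims to angiotensin II, and this peptide acts through the AT1 receptors (Agtr1a and Agtr1b in mice), the AT2 receptor (Agtr2) and, after further trimming, the receptor Mas1. In the adrenal cortex angiotensin II is known as a main stimulus of aldosterone synthesis in the outer zone, the glomerulosa, and AT2 receptors are known from the medulla of the rat.

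Depth was 36512736 expected counts (reads shared out among transcripts) for replicate 1 and 34454892 for replicate 2. TPM is the abundance of a gene's transcripts relative to all transcripts, corrected for length, so it can be set side by side between genes. The label was checked against marker genes: 6 of 6 fasciculata, 8 of 8 chromaffin and 6 of 7 glomerulosa markers reached 1 TPM in both libraries. So did 54.4% of all protein-coding genes, 8 of 8 white adipocyte, 7 of 7 brown adipocyte and 8 of 8 endothelial markers. The check therefore shows that adrenal markers are present, and not that other tissue is absent. White adipocyte markers summed to 4806 TPM in replicate 1 and 3726 TPM in replicate 2, and fasciculata markers to 4954 and 5720 TPM. Of the 12425 genes that averaged at least 100 counts, 97.3% differed by less than 1.5-fold between the libraries, and the median absolute log2 ratio was 0.108. Nuclear protein-coding genes held 29.7% and 30.4% of all TPM, which lowers every TPM given here relative to libraries of mRNA alone. Each library was quantified in 2 ways by the authors, from alignments (alignment-based) and from reads matched to an index (read-based), and values are alignment-based unless stated. Read-based TPM of most genes was higher, with a median log2 of alignment-based over read-based TPM of -0.87 in replicate 1 and -0.95 in replicate 2.

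The AT1 receptors are the one pair of close copies in the set, so the letters that tell their reads apart bear on the values of Agtr1a and Agtr1b. Their coding sequences are 1077 bases long each and differ at 99 bases, an identity of 90.8%. The 60-base window with the most differences, coding bases 964 to 1023 near the end of the receptor, holds 13. It is shown for both genes from the mm10 genome, 5′ to 3′ on the gene's strand, at chr13:30381917-30381976 (+) for Agtr1a and chr3:20315418-20315477 (-) for Agtr1b, with differing bases in capitals.
Agtr1a: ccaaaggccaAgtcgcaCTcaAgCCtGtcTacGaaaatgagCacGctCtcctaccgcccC
Agtr1b: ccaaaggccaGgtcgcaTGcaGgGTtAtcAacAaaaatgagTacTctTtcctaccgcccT
The longest run without a difference has 66 bases, coding bases 75 to 140, at chr13:30381028-30381093 (+) in Agtr1a and chr3:20316301-20316366 (-) in Agtr1b.
Both AT1 genes: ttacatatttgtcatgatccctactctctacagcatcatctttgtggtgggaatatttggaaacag
Of the 978 windows of 100 bases in the coding sequence, 0 were identical between the genes. In the full-length transcript Agtr1a-201, 93 of 2169 words of 31 bases also occurred in Agtr1b, and 0 of 2100 words of 100 bases did. A read that covers only an identical stretch cannot be given to either gene with certainty, and how many reads did so was not tested. Between the set and other genes, Atp6ap2-201 shared 191 of 2294 words of 31 bases with Gm36448 and 0 words of 100 bases. Agtrap-201 shared 60 of 3966 words of 31 bases with other genes and Agtr1a-206 shared 25 of 415, and each shared 0 words of 100 bases.

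Of the 9 genes, 8 reached 1 TPM in both libraries, against 54.4% of all protein-coding genes. Levels ran from 74.7 TPM for Agtr1a to 0 counts for Mas1, and the 9 genes summed to 158 TPM in replicate 1 and 151 TPM in replicate 2. For scale, the median protein-coding gene at or above 1 TPM in both libraries stood at 9.75 TPM, a level that 4 of the 9 genes exceeded. The 4 are the main angiotensin receptor, its binding protein, the AT2 receptor and the renin receptor. The precursor and both enzymes that make angiotensin II stood below that level, as did the receptors Agtr1b, at 3.65 TPM, and Mas1. Agtr2 exceeded it only with its short noncoding transcript included, as the coding transcript alone stood at 8.44 TPM. By alignment 14.6% of protein-coding genes stood above Agtr2, and by reads 30.8%.

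**Figure D1:**
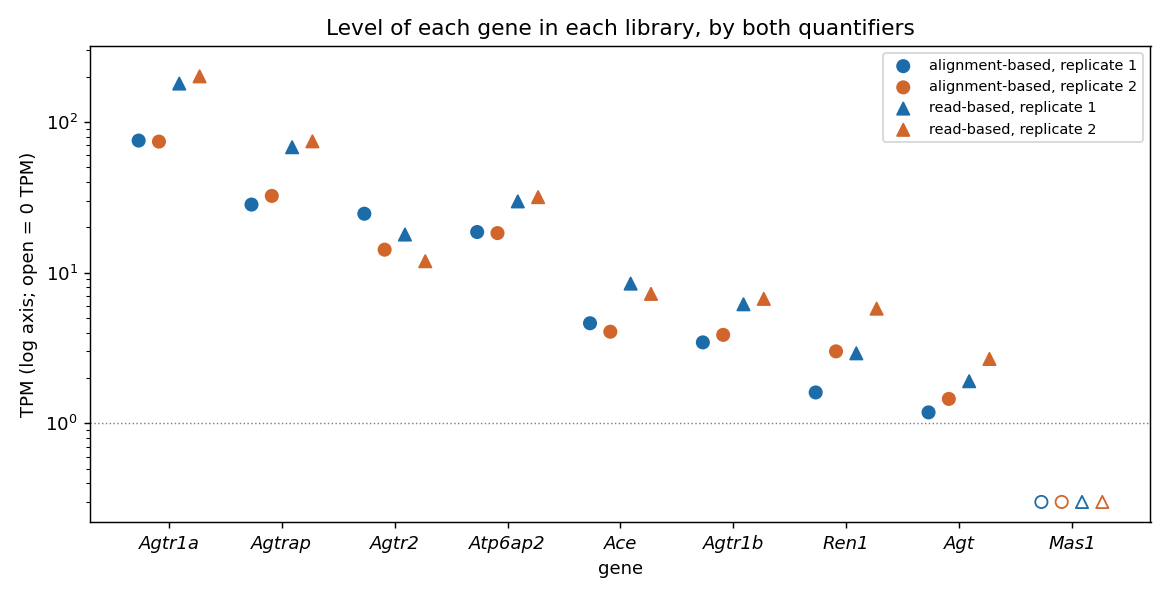
TPM of the 9 genes (log axis) in each library, as circles for the alignment-based and triangles for the read-based tables, with replicate 1 left of replicate 2 within each kind. The dotted line marks 1 TPM and open symbols mark a value of 0. Agtr1a lies highest by both, and the 4 symbols of Mas1 lie at 0.

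Agtr1a (ENSMUSG00000049115.15), at chromosome 13 from 30336441 to 30382867 on the plus strand, encodes the main AT1 receptor of rodents, which signals through Gq to calcium. It had 5326 counts in replicate 1 and 5036 in replicate 2, or 75.3 and 74.1 TPM (mean 74.7 ± 0.87, SD, n = 2). Both libraries lay close together, and 3.01% of protein-coding genes had a higher mean TPM. By the read-based tables Agtr1a had 180 and 201 TPM, with 2.35% of protein-coding genes above it.

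Agtr1b (ENSMUSG00000054988.9), at chromosome 3 from 20314473 to 20367177 on the minus strand, is the other AT1 gene of rodents, which in rats is known from the adrenal gland and the pituitary. It had 274 and 286 counts, or 3.44 and 3.86 TPM (mean 3.65 ± 0.297, SD, n = 2). Agtr1a thus stood 21.9 times above Agtr1b in replicate 1 and 19.2 times in replicate 2, and held 95.6% and 95% of the TPM of the pair. Read-based TPM put the ratio at 29.2 and 30, and the full-length transcripts alone put it at 18.4 and 16.8. All of these placed Agtr1a far above Agtr1b, in both libraries.

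Agtr2 (ENSMUSG00000068122.10), at chromosome X from 21484544 to 21489164 on the plus strand, encodes the AT2 receptor, which is known to oppose many actions of AT1. Its counts were 1389 in replicate 1 and 823 in replicate 2, or 24.6 and 14.2 TPM (mean 19.4 ± 7.32, SD, n = 2). Replicate 1 was the higher of the libraries, and the SD was the largest of the 9 genes. Read-based TPM was 17.9 and 11.9, so Agtr2 was higher by alignment although most genes were lower by it. After centring each library on the median of 14954 genes, the log2 of alignment-based over read-based TPM was 1.32 and 1.20 for Agtr2, the only one of the 9 past 2-fold the same way in both libraries, where 3.68% of all genes were. The ratio of Agtr1a to Agtr2 therefore depended on the table, at 3.07 and 5.22 by alignment-based and 10.1 and 16.9 by read-based TPM. With the full-length transcripts alone the quantifiers gave 6.17 and 9.75 by alignment, and 5.81 and 9.23 by reads.

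Mas1 (ENSMUSG00000068037.11), at chromosome 17 from 12841079 to 12868143 on the minus strand, encodes the receptor of a shortened form of angiotensin II. All 10 of its annotated transcripts had 0 counts in both libraries by both quantifiers. A count of 0 allows up to 3 counts per library, which on the longest transcript is 0.0335 TPM in replicate 1 and 0.036 TPM in replicate 2, counting error only. Shorter transcripts have higher limits, with deposited upper bounds of up to 0.245 and 0.264 TPM, for Mas1-203. Airn, a noncoding RNA that overlaps Mas1 on the opposite strand, had 72 and 109 counts.

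Ace (ENSMUSG00000020681.14), at chromosome 11 from 105967945 to 105989964 on the plus strand, encodes a membrane-bound peptidase best known from endothelial cells. It had 824 and 677 counts, or 4.61 and 4.05 TPM (mean 4.33 ± 0.396, SD, n = 2). Gm11651, annotated antisense to Ace, had 0 counts in both libraries. The 8 endothelial markers all reached 1 TPM, with sums of 254 and 279 TPM.

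Ren1 (ENSMUSG00000070645.5), at chromosome 1 from 133350510 to 133360325 on the plus strand, encodes the enzyme whose main source is the kidney. It had 93 counts in replicate 1 and 162 in replicate 2, or 1.6 and 3 TPM (mean 2.3 ± 0.99, SD, n = 2), with replicate 1 the lower library. Agt (ENSMUSG00000031980.9), at chromosome 8 from 124556534 to 124569706 on the minus strand, encodes the precursor, whose main source is the liver. It had 82 and 94 counts, or 1.18 and 1.45 TPM (mean 1.32 ± 0.191, SD, n = 2). The substrate and the enzyme that cuts it were thus the lowest of the 8 detected genes, and 48.2% and 53.1% of protein-coding genes stood above Ren1 and Agt.

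Agtrap (ENSMUSG00000029007.8), at chromosome 4 from 148077061 to 148088031 on the minus strand, encodes a protein that binds the tail of the AT1 receptor and promotes its uptake into the cell. It had 2866 and 3114 counts, or 28.3 and 32.3 TPM (mean 30.3 ± 2.81, SD, n = 2), below Agtr1a and above all other members. Atp6ap2 (ENSMUSG00000031007.2), at chromosome X from 12587801 to 12617049 on the plus strand, encodes the prorenin receptor, also an accessory protein of the proton pump V-ATPase. It had 1573 and 1468 counts, or 18.6 and 18.3 TPM (mean 18.5 ± 0.184, SD, n = 2). Its 2 values were the closest of all detected members in TPM, while those of Agtr2 spanned them on both sides.

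Ordered by mean TPM the genes ran Agtr1a, Agtrap, Agtr2, Atp6ap2, Ace, Agtr1b, Ren1, Agt and Mas1. The ranges of neighbours did not overlap in either quantifier, with 1 exception: Agtr2 and Atp6ap2 overlapped by alignment, and by reads Atp6ap2 stood above Agtr2. Read-based levels of the members not yet given by reads were each higher than by alignment. Agtrap had 68 and 74.4 TPM, Atp6ap2 29.7 and 31.7 TPM, and Ace 8.45 and 7.22 TPM by reads. Agtr1b had 6.16 and 6.69 TPM, Ren1 2.91 and 5.76 TPM, and Agt 1.9 and 2.67 TPM. In this read-based TPM, replicate 1 was above replicate 2 for Ace and below it for the other 5 genes of these 6. From read-based counts scaled between the libraries, as described below, the direction turned for Atp6ap2 and Agtr1b. Their log2 ratios of replicate 1 over replicate 2 were 0.07 and 0.06, with counting intervals that span 0. The direction held for Ace, Agtrap, Ren1 and Agt. When only the longest transcript of each gene was counted, a choice made after the values were seen, 5 of the 9 genes kept their place. Agtr2 then stood at 8.44 TPM, below Atp6ap2 at 18.1 TPM, and Agtr1b and Ace stood level at 3.65 and 3.64 TPM.

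The short transcripts of these genes overlap the long ones in part, so the separate values are estimates. Words of 31 bases found in no other transcript made up 77.3% of Agtr1a-201 but 6.51% of Agtr1a-204. For the 7 detected genes with several transcripts, shares of the gene's TPM were computed in each library. The transcript with the largest mean share was the same by both quantifiers in 5 of them. Agtr2 and Agtrap were the exceptions, and in both a short noncoding transcript was involved. For Agtrap this was near a tie: by reads the mean shares of Agtrap-203 and Agtrap-201 were 50.5% and 49.5%, and Agtrap-201 led in replicate 2.

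**Figure D2:**
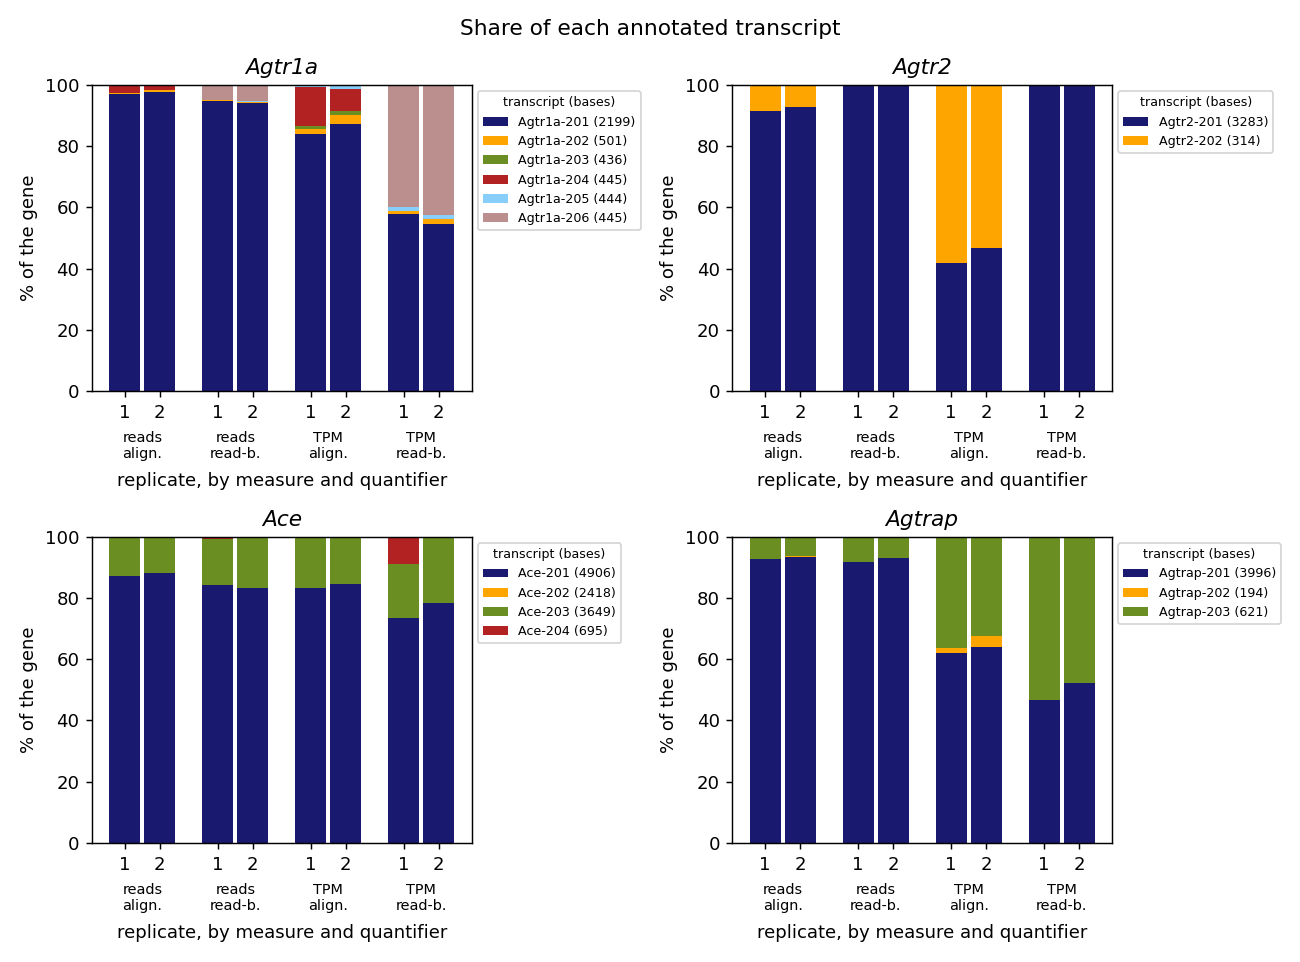
Percent of each gene on each annotated transcript for Agtr1a, Agtr2, Ace and Agtrap, in replicates 1 and 2, as a share of estimated read counts (left pairs of bars) and of TPM (right pairs), alignment-based (align.) and read-based (read-b.). The longest transcript leads the counts in all 4 genes, while short transcripts take a much larger share of TPM than of counts in Agtr1a and Agtrap, and in Agtr2 by alignment.

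For Agtr2, the 314-base noncoding Agtr2-202 took 58.2% and 53.3% of the gene's alignment-based TPM (mean 55.8 ± 3.46%, SD, n = 2). It did so on 119 and 58.9 counts, 8.6% and 7.16% of the gene's counts, because TPM divides counts by an effective length of 215 bases for Agtr2-202 and 3184 bases for the coding Agtr2-201. The read-based tables gave Agtr2-202 0 counts. Agtr2-201 itself had 10.3 and 6.63 TPM by alignment and 17.9 and 11.9 TPM by reads. The gene-level difference between quantifiers moved with the handling of this 1 short transcript.

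For Agtr1a, the coding transcript Agtr1a-201 (2199 bases, 3 exons) held 96.9% and 97.6% of alignment-based counts and 94.8% and 94.2% of read-based counts. Its share of TPM was 84% and 87.3% by alignment, but 57.7% and 54.7% by reads. The remainder fell on different short transcripts: Agtr1a-204 had 126 and 65.4 counts by alignment and 0 by reads. Agtr1a-206 had 4.91 and 3.3 counts by alignment and 265 and 276 by reads, enough for 72 and 85.1 read-based TPM. Agtr1a-206 is 445 bases long and carries a 102-base exon that overlaps no exon of the other Agtr1a transcripts, at chr13:30337590-30337691. Of its 415 words of 31 bases, 106 were found in no other transcript, and 25 also occurred in other genes. The part of these shared words in its read-based counts was not tested. The 2 quantifiers therefore placed nearly equal numbers of reads on the receptor's full-length mRNA, 5162 and 4914 against 5172 and 4830, and differed in which short form they named.

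For Agtrap, the coding Agtrap-201 held 62% and 64% of TPM by alignment and 46.8% and 52.2% by reads, and the noncoding Agtrap-203 (621 bases) held 36.4% and 32.4% by alignment and 53.2% and 47.8% by reads. In counts Agtrap-203 made up 7.3% and 6.35%. Atp6ap2-201 held 97% and 99.2% of its gene's TPM, and Ren1-201 held 100%. Agtr1b-201 held 100% by alignment and 74.9% and 76.8% by reads, with the rest on Agtr1b-202, which encodes the same length of protein.

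Ace is known for a somatic form and a shorter testis form, the testis form starting from a promoter inside the gene. Both starts have a RefSeq entry (GRCm38.p6), and the 250 bases before each are shown because reads were assigned to the transcript that begins near the somatic start and not to the other. The bases before the somatic start lie at chr11:105967698-105967947 (+) and those before the testis start at chr11:105974939-105975188 (+). Capitals mark matches, on either strand, to 3 motifs. The motif TATAAA is known from core promoters. The motif GGGCGG is known as the GC box. The motif TGAGGTCA resembles the response element of cyclic AMP.
Somatic Ace: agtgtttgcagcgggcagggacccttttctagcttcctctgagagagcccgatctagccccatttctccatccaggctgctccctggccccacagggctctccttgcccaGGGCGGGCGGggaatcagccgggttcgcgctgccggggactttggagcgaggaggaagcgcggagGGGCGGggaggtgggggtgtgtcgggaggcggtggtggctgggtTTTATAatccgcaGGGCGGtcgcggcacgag
Testis Ace: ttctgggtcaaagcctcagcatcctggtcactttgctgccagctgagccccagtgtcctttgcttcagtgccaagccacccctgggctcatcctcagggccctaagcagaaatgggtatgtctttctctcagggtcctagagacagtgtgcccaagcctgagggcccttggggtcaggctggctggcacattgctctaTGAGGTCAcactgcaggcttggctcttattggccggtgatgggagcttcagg
Ace-201, the 25-exon somatic transcript of 4906 bases, had 718 and 597 counts, 83.3% and 84.7% of the gene's TPM (mean 84 ± 0.986%, SD, n = 2). Ace-202, the 14-exon transcript of 2418 bases that begins near the inner start, had 0 alignment-based counts in both libraries, with deposited upper bounds of 0.281 and 0.298 TPM. Ace-202 has 196 words of 31 bases found in no other transcript, so reads from it could be told apart. The remaining counts, 106 and 79.7, were on Ace-203.

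The promoter window of RefSeq (250 bases before to 50 after a start) was found for 8 of the 9 genes, all but Agtr1a. Motifs were searched on either strand in the 250 bases before the start only, for these genes and for all promoters. The 50 bases after the start were not searched. TATAAA occurred in Agtr1b, Agt, Ren1 and somatic Ace, between 29 and 31 bases before the start in each, and occurs in 12.4% of 32851 promoter windows. The match lay on the opposite strand in somatic Ace and on the gene's own strand in the others. GGGCGG occurred 4 times in somatic Ace, of which 2 matches overlap, and 2 times in Atp6ap2, and occurs in 32.7% of windows. TGAGGTCA occurred in testis Ace alone among these windows, 52 bases before the start, and occurs in 1.94%. None of the 3 was found in the searched bases of Agtr2, Agtrap and Mas1.

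Between the libraries, 7 of the 9 genes averaged at least 100 counts and could be compared, and 2 of them, Agtr2 and Ren1, were past 1.5-fold, where 2.68% of all such genes were. Ratios are log2 of replicate 1 over replicate 2, scaled by the trimmed mean of M-values (TMM), and brackets give the interval from counting error alone. Agtr2 was higher in replicate 1 by a log2 ratio of 0.75 (0.62 to 0.87), a fold of 1.68. In that direction 1.42% of all genes were past 1.5-fold. The coding transcript Agtr2-201 alone gave 0.72 (0.59 to 0.86), and read-based counts gave 0.77. Ren1 was lower in replicate 1, with a log2 ratio of -0.81 (-1.19 to -0.43) and -0.80 by read-based counts, and in that direction 1.26% of genes were past 1.5-fold. The AT2 receptor and renin thus lay on opposite sides, each beyond its counting error.

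**Figure D3:**
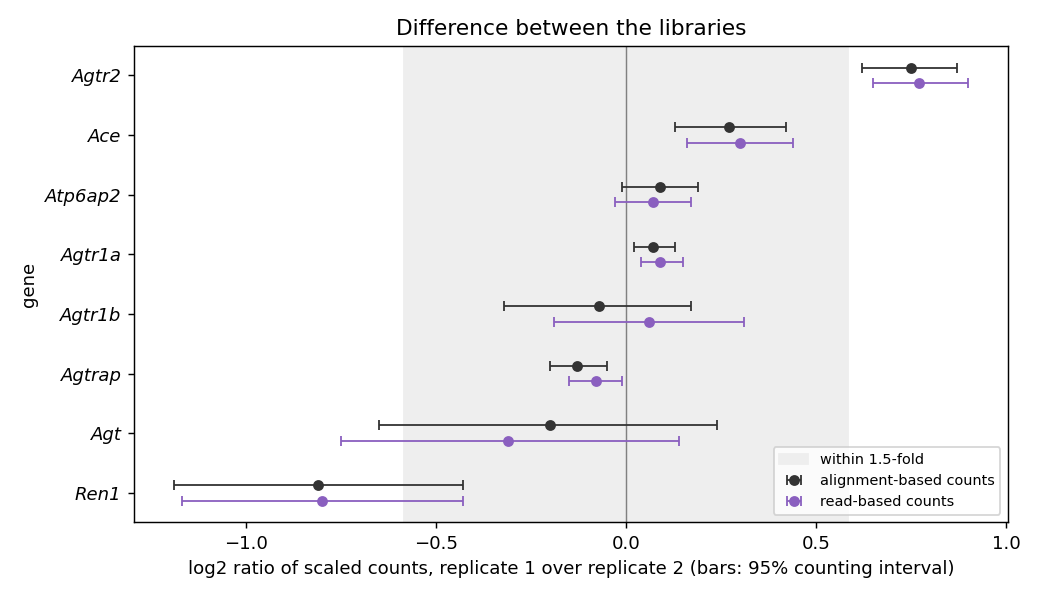
Log2 ratio of scaled counts, replicate 1 over replicate 2, for the 8 detected genes, with bars for the 95% interval from counting error, in black for alignment-based and purple for read-based counts. The grey band marks 1.5-fold, and Agtr2 and Ren1 have both points outside it, on opposite sides.

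The other members differed little. Ace stood at 0.27 (0.13 to 0.42), and 16.6% of all genes were at least as far apart. Agtrap stood at -0.13 (-0.20 to -0.05) and Atp6ap2 at 0.09 (-0.01 to 0.19). Agtr1b stood at -0.07 (-0.32 to 0.17), an interval that spans 0. Agtr1a stood at 0.07 (0.02 to 0.13), a direction that turned when libraries were scaled by total count. Agt, at a mean of 88 counts, stood at -0.20 (-0.65 to 0.24) and was too sparse for a call.

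Markers of several cell types also differed between the libraries. Of the chromaffin markers, 8 of 8 were higher in replicate 1 and 1 was past 1.5-fold, with sums of 2137 TPM in replicate 1 and 1878 TPM in replicate 2. The capsule and stroma markers (8 of 8 higher, 225 and 185 TPM) and the smooth muscle markers (7 of 7 that had 100 counts, 143 and 121 TPM) lay the same way with 0 past 1.5-fold. Of the brown adipocyte markers, 7 of 7 were higher in replicate 1, 6 of them past 1.5-fold, with sums of 1624 and 839 TPM, and white adipocyte markers summed to 4806 and 3726 TPM with 8 of 8 higher. Glial (Schwann and satellite) markers summed to 11.3 and 7.58 TPM. No marker of these lists was at 0 in both libraries. Kidney tubule markers summed to 3.25 and 6.51 TPM, with 2 of 8 at 1 TPM and Slc12a1 at 0. Most of that difference lay in Kap, at 1.27 and 4.09 TPM, while Aqp2 had 1.01 and 1.03 TPM. Only 1 kidney tubule marker averaged 100 counts, Lrp2. It was past 1.5-fold lower in replicate 1, with a log2 ratio of -0.62 (-0.99 to -0.26). Of the sparser ones, Kap, Slc34a1, Slc12a3 and Umod had negative log2 ratios, and Aqp2 and Napsa positive ones. The markers of renin cells of the kidney, a list of 5 that includes Ren1, summed to 1839 and 1848 TPM, mostly from Akr1b7, which the fasciculata also expresses, and 3 of them were higher and 2 lower in replicate 1. Hepatocyte markers summed to 11.2 and 20.8 TPM, with 2 of 8 at 1 TPM and albumin (Alb) at 0.88 and 5.06 TPM. Larger lists of the gland itself were also lower in sum in replicate 1. Fasciculata markers summed to 4954 and 5720 TPM, with 4 of 6 lower and 2 higher in replicate 1. Endothelial markers summed to 254 and 279 TPM, with 6 of 8 lower and 2 higher. Glomerulosa markers summed to 400 and 442 TPM, with 3 lower and 3 higher of the 6 that had 100 counts. The part of all these cells in the ratios of Agtr2 and Ren1 was not tested, and fewer cells of a type cannot be told apart from less RNA per cell.

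The wider set of peptidases and receptors that handle angiotensins had 20 genes, of which 14 reached 1 TPM in both libraries. The highest were the lysosomal proteases Ctsb, at 321 and 311 TPM, and Ctsd, at 262 and 254 TPM. Lnpep, an aminopeptidase that binds the fragment angiotensin IV, followed at 34.3 and 38.1 TPM. Ctsa, a lysosomal carboxypeptidase, had 32.9 and 34.8 TPM, Dpp3, which degrades angiotensin II, had 30.2 and 30.9 TPM, and the aminopeptidase-like Rnpepl1 had 20.6 and 20.1 TPM. Of 14 genes with 100 counts, 0 were past 1.5-fold between the libraries, and the median log2 ratio was 0.08, beside 0.01 for all genes.

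**Figure D4:**
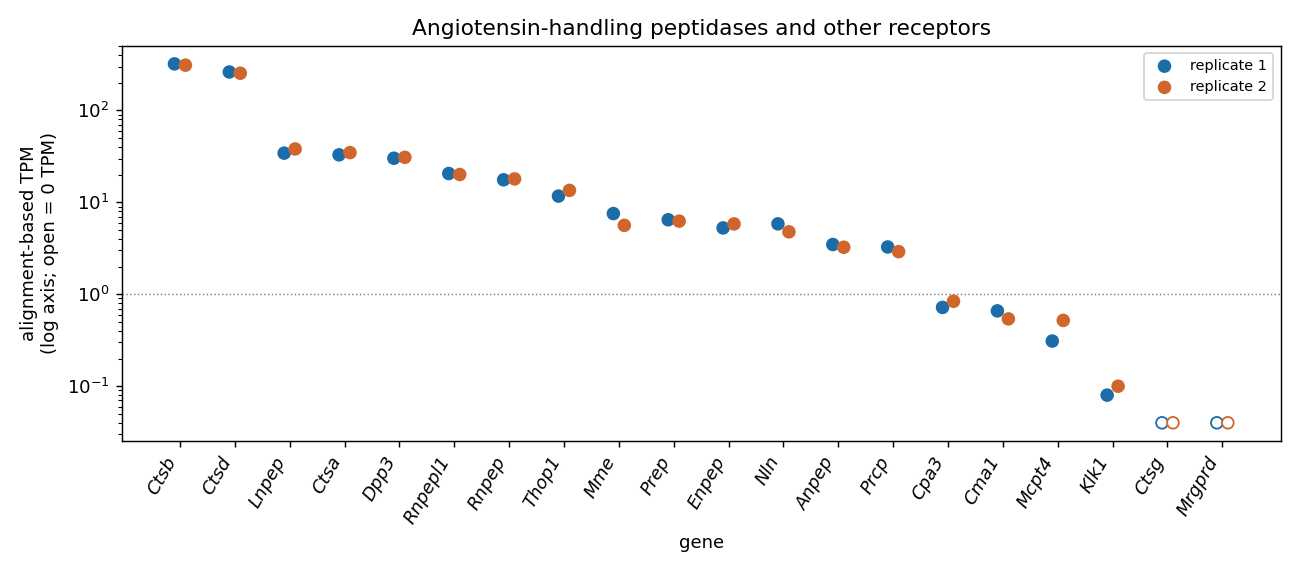
Alignment-based TPM (log axis) of 20 peptidases and other receptors that handle angiotensins, in replicate 1 (blue) and replicate 2 (orange). The dotted line marks 1 TPM, which 14 genes exceeded in both libraries, and open circles mark Ctsg and Mrgprd at 0.

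Several peptidases of the pathway, named for their roles after their values were seen, stood far below these. Enpep, which removes the first residue of angiotensin II, had 5.27 and 5.83 TPM, and neprilysin (Mme) had 7.55 and 5.62 TPM. The mast cell proteases Cma1, Mcpt4 and Cpa3, of which Cma1 is known to make angiotensin II, were each under 1 TPM in both libraries. By reads, Cma1 had 1.18 and 1.14 TPM, Cpa3 1.34 and 1.37 TPM, and Mcpt4 0.577 and 0.746 TPM. Of the mast cell markers, 0 of 8 reached 1 TPM by alignment, with sums of 3.95 and 4.01 TPM. The sums by reads were 7.63 and 7.37 TPM. There Cpa3, Cma1, Tpsb2 and Kit were above 1 TPM in both libraries, and Mcpt4, Tpsab1, Ms4a2 and Fcer1a were below. Mrgprd, proposed as a receptor of another shortened angiotensin, was at 0, as was Mas1.

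Downstream of AT1, 27 of 28 signalling genes reached 1 TPM in both libraries, and 0 of 27 with 100 counts were past 1.5-fold, with a median log2 ratio of -0.02. The highest was Rgs2, a brake on Gq signalling, at 120 and 151 TPM. Next were the G protein subunits Gnai2, at 80.6 and 83.6 TPM, and Gna12, at 35.1 and 36.4 TPM, and the calcium release channel Itpr1, at 34.9 and 36.1 TPM. Rgs2 had a log2 ratio of -0.30, and those of the others lay between -0.06 and 0.04.

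In the aldosterone list, 13 of 14 genes reached 1 TPM, and of 13 with 100 counts 2 were past 1.5-fold, both lower in replicate 1. These were Nr4a1, at 164 and 316 TPM with a log2 ratio of -0.90 (-0.93 to -0.87), and Nr4a2, at 6.29 and 10.5 TPM with -0.64 (-0.77 to -0.51). Both encode nuclear receptors known to be quickly induced by angiotensin II in human adrenal cells, and by other stimuli. Aldosterone synthase (Cyp11b2) had 178 and 218 TPM, a log2 ratio of -0.19, the potassium channel Kcnk3 had 371 and 385 TPM and the calmodulin gene Calm2, whose product carries calcium signals, had 140 and 147 TPM. Cyp11b2 has a close copy, Cyp11b1, and how far reads are shared between them was not tested.

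Of the 3 AT2 partners all reached 1 TPM, and Zbtb16, a transcription factor that binds the AT2 receptor, was past 1.5-fold, at 7.41 and 14 TPM with a log2 ratio of -0.83 (-0.94 to -0.72). Zbtb16 was thus lower in replicate 1, opposite to Agtr2. Mtus1, which also binds the AT2 receptor, had 26.7 and 25.4 TPM, and Erbb3 1.11 and 1.16 TPM.

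Around Atp6ap2, 18 of the 24 V-ATPase genes matched reached 1 TPM, 0 of 17 with 100 counts were past 1.5-fold, and Atp6v1b1, Atp6v1e2 and Atp6v1g3 were at 0. The highest were the membrane ring subunit Atp6v0c, at 138 and 142 TPM, the stalk subunit Atp6v1e1, at 105 and 107 TPM, Atp6v1h, at 76.3 and 81.5 TPM, and the other accessory protein Atp6ap1, at 75.8 and 76.4 TPM. Atp6ap2 itself, at 18.6 and 18.3 TPM, stood below these 4 subunits.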

How the data were processed

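Total RNA of 2 adrenal gland libraries was analysed. The build was mm10 per the labels, and the annotation GENCODE M21 per the deposited notes. Which aligner and quantifiers were run is not given in the sources used here. The authors deposited, per library, alignment-based gene and transcript tables with expected counts, TPM and FPKM, per the file headers, under column names that RSEM writes. They also deposited a read-based transcript table with estimated counts and TPM, under column names that kallisto writes. In the alignment-based tables the effective length is the transcript length less a constant, so short transcripts gain TPM from few counts. In the read-based tables the length subtracted was not constant. Short transcripts gained TPM from few counts there too, as their effective length was smaller still. In replicate 1 it was 139 bases by reads against 346 by alignment for Agtr1a-206, and 71.7 against 215 for Agtr2-202. The depth, in expected counts, was 36512736 for replicate 1 and 34454892 for replicate 2. CAST alleles were read against a C57BL/6J reference, and the effect on counts was not tested.

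Members were found by symbol in the read-based tables, whose values were summed per gene, and joined by gene identifier. Counts were rounded, 0.5 was added, and libraries were scaled by TMM (edgeR 4.0.16, R 4.3.3) over genes averaging at least 10 counts. Intervals are exact Clopper-Pearson 95% intervals of the share of counts in replicate 1. They and the floor of 3 counts cover counting error only. A gene was called apart past 1.5-fold at an average of at least 100 counts. The libraries differed by a biological coefficient of variation of 0.106 (edgeR's common dispersion) over 17267 genes. The procedure was tested on simulated data. DESeq2 1.42.0 size factors, total counts, TPM ratios, read-based values, other thresholds and single libraries served as alternatives.

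All 9 members are named, with the 6 highest genes of the peptidase list, the 4 highest of each other list described and any of them past 1.5-fold. The members and lists were chosen with earlier results of these data known. Values of some single genes are not reported here, and the lists were counted without them. Motifs and shared words were searched in RefSeq promoters and GENCODE transcripts.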

Additional observations from a re-analysis of the deposited data

How the results depend on the processing

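No paired analysis was possible because the series has 1 group. With 2 libraries, counting error and the spread of 2 values are all the error available, and depth limits Agt, Ren1 and Agtr1b most. Without replicate 1 or without replicate 2, the number of members at 1 TPM stayed at 8, the number of genes detected in the peptidase list at 14 and the number of genes whose leading transcript was the same at 7; the first 2 counts require both libraries, so leaving 1 out could not lower them. By read-based TPM the peptidase list had 16 genes at 1 TPM in both libraries, against 14 by alignment. With only the longest transcript of each gene, an alternative added after the data were seen, 5 of 9 members kept their place in the order of levels. At a mean of 20 or more counts, 1009 genes were past 1.5-fold, against 333 at 100 or more, since sparser genes enter. The log2 ratio of Agtr1a was -0.00268 with total-count scaling, against 0.07 with TMM. The log2 offset subtracted from every gene's ratio was 0.083 with total counts and 0.0089 with TMM, so this shift is the same for all genes. Of the other ratios under alternatives, 39 stayed within the counting interval and 1, that of Agtrap, moved to -0.20 with total counts. Leaving out 1 of 2 libraries cannot move a level or share by over 1 SD, so it is not counted here. Of the single levels under the other alternatives, 14 stayed within 1 SD and 22 moved, and of the 7 transcript shares 2 stayed and 5 moved with read-based TPM.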

Other observations

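Genes of 2 neighbouring hormone systems were also read. Of the natriuretic peptide genes, whose products are known to counter aldosterone release, 4 of 6 reached 1 TPM in both libraries. The receptor Npr1 had 83.8 and 90.6 TPM in replicates 1 and 2, Npr2 had 10.5 and 12 TPM, and Npr3, which clears the peptides, had 6.92 and 6.03 TPM. The peptide gene Nppb, at 75 and 152 counts or 2.83 and 6.16 TPM, was lower in replicate 1 with a log2 ratio of -1.02 (-1.45 to -0.62, counting error only), while Nppa was at 0 counts in both libraries. Of the kallikrein-kinin genes, which share Ace as the enzyme that breaks down bradykinin, 3 of 9 reached 1 TPM in both libraries. The peptidases Xpnpep1 and Cpm had 23.7 and 23.4 TPM, and 8.48 and 8.95 TPM. The bradykinin receptor Bdkrb2 had 3.56 and 5.4 TPM, and its log2 ratio was -0.51 from TMM-scaled counts, within 1.5-fold on that scale. The kininogen gene Kng2, at 86.9 and 39.3 counts or 1.66 and 0.72 TPM, had a log2 ratio of 1.14 (0.59 to 1.73) at a mean under 100 counts.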
